A study of Drosophila melanogaster with 72 samples.

Results

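Attacins, diptericins and cecropins are mostly secreted antibacterial peptides that flies make in large amounts during infection. Their RNA was measured for 10 genes, namely the attacins AttA, AttB, AttC and AttD, the diptericins Dpt (DptA in RefSeq) and DptB, and the cecropins CecA1, CecA2, CecB and CecC. They were chosen by name from the 15240 genes listed, and for a gene with several transcripts the one of highest mean level was taken. Levels are in FPKM (read counts scaled to transcript length and to library size).

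Messenger RNA was sequenced from Oregon R male flies aged 3, 5 or 7 weeks under time-restricted feeding (TRF), in which the food alternated with a medium of agar and water, or under ad libitum feeding (ALF). The tissue was the heart (week 5 only), the head or the periphery, and flies were taken every 6 h or, for head and periphery at week 5, every 3 h of Zeitgeber time (ZT, hours after lights on). Each tissue, week and feeding group had 1 library per ZT, so the ZTs serve as the replicates of a group. In fits with ZT as a block, p-values measure the spread left between libraries once the shared difference between ZTs is removed. In tests with no such block, the spread includes that of time of day. No library came from flies described as infected, and all groups share the wild-type strain and the sex.

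The labels of 12 of the 72 libraries disagreed with their markers. The photoreceptor opsin ninaE lay between 0.0810 and 0.923 FPKM in 6 libraries labelled head and between 14968 and 22940 FPKM in 6 labelled periphery, and all 12 were left out. The 60 libraries retained are 8 heart, 26 head and 26 periphery libraries. In these, ninaE was 20.8 to 86.3 FPKM in heart, 9856 to 27051 FPKM in head and at most 0.633 FPKM in periphery, and Hand, a cardiac transcription factor, was 721 to 1779 FPKM in heart, at most 1.67 FPKM in head and 6.09 to 15.6 FPKM in periphery. The heart libraries also held RNA of the sperm gene Mst87F at 16.5 to 142 FPKM. Other heart markers did not all follow Hand. The level of tin was 1.34 to 5.12 FPKM in heart, at most 0.714 FPKM in head and 0.651 FPKM in periphery. The log2 differences of heart from periphery at week 5 were 6.48 (Hand), 2.39 (H15), 0.43 (mid), 0.27 (svp), -0.17 (Sur), -2.03 (Doc1) and -2.39 (Nep1). Against head, mid (-0.94) and Nep1 (-3.54) were lower, while Hand, H15, Doc1, svp and Sur were above 0. Retained libraries held 0.210 to 23.7 M reads. The shallowest, the head TRF library of week 3 at ZT12, can miss the shorter genes altogether.

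In Drosophila the genes are read-outs of the immune deficiency (IMD) pathway. Bacterial peptidoglycan is sensed by the receptors PGRP-LC and PGRP-LE, the adaptor imd and the caspase Dredd pass the signal on, and the NF-kB protein Relish (Rel) enters the nucleus and switches the peptide genes on. Fat body makes most of the circulating peptide, while blood cells (hemocytes) and surface epithelia make it locally. Attacins and diptericins are glycine-rich peptides that act mainly on Gram-negative bacteria, and cecropins are short helical peptides that break bacterial membranes.

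Of the 10 genes, 5 lie on chromosome arm 2R and 5 on 3R (coordinates in dm3, exons and UTRs together). AttA (CG10146, 2R:10634876-10635698, plus strand) and AttB (CG18372, 2R:10636728-10637580, plus strand) are neighbours, and so are Dpt (CG12763, 2R:14753270-14753765, plus strand) and DptB (CG10794, 2R:14754895-14755400, plus strand). AttC (CG4740) stands alone at 2R:9281210-9282172 and AttD (CG7629) at 3R:13450990-13451808, both on the plus strand. The cecropins form a cluster with CecA1 (CG1365, 3R:26036596-26037009), CecA2 (CG1367, 3R:26037878-26038291) and CecC (CG1373, 3R:26042206-26042659) on the plus strand and CecB (CG1878, 3R:26039057-26039519) on the minus strand. Next to them lies Anp (3R:26035670-26036011), which encodes andropin, a peptide of the male ejaculatory duct, and ends 584 bases before CecA1, so that the 5 genes span 6990 bases. AttA and AttB, and likewise CecA1 and CecA2, are near-identical copies whose reads may have been split between them in counting. The libraries keep no strand, and the ends of AttC and DptB overlap the genes CG4744 and CG43109 on the other strand by 53 and 48 bases.

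At week 5, the age with all 3 tissues, the heart libraries had the highest median of every one of the 10 genes. These medians cover unlike ZTs, since heart was sampled every 6 h and no head library of ZT06 was retained at week 5. The fitted differences take ZT as a block. In heart, 8 of the 10 genes were higher than in periphery at an adjusted p under 0.05 (limma on log2(FPKM + 1), Benjamini-Hochberg adjustment over 12287 genes), where 16.3% of all genes were called higher and 80.9% were called in either direction. In heart against head, 7 of the 10 were higher, where 31.1% of all genes were called higher and 78.1% in either direction. The median difference of the 10 was 2.12 log2 units for heart against periphery (all genes -0.61) and 2.36 for heart against head (all genes -0.21). With FPKM rescaled by the median of ratios, 10 and 9 of the 10 were higher in heart, and the all-gene medians were -0.24 and 0.25. The rescaling also raised the count of all genes called higher to 3653 and 5910, against 2003 and 3816 of 12287 as deposited. These were 37.8% and 60.9% of the genes called, against 20.2% and 39.8% as deposited. In such mixed tissue, more cells of a type and more RNA per cell cannot be told apart.

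Among the cecropins the heart stood highest for CecB. CecB ranged from 11.04 to 104 FPKM with a median of 48.0 in 8 heart libraries, from 0 to 25.7 with a median of 0.415 in 13 head libraries and from 0 to 5.69 with a median of 0.673 in 16 periphery libraries. Every heart library was thus above every periphery library, which held for 7.04% of all genes, and CecB was listed at 0 in 4 head and 5 periphery libraries. Its difference was 4.33 (SE 0.48, adjusted p = 2.53e-09) for heart against periphery and 3.91 (SE 0.51, adjusted p = 7.88e-08) for heart against head. CecC had a median of 113 FPKM in heart (43.1 to 357), 10.01 in head (0.271 to 287) and 12.6 in periphery (1.51 to 54.1), with overlapping ranges. CecC was higher in heart by 3.56 (SE 0.67, adjusted p = 2.41e-05) against periphery and by 3.15 (SE 0.72, adjusted p = 0.000271) against head. CecA2 had a median of 181 FPKM in heart, 31.1 in head and 40.5 in periphery, and rose in heart by 2.54 (SE 0.64, adjusted p = 0.00073) against periphery and by 2.66 (SE 0.68, adjusted p = 0.000932) against head.

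CecA1 had a wider gap between periphery and head. It had a median of 453 FPKM in heart (60.5 to 965), 31.4 in head (0 to 937) and 141 in periphery (85.5 to 288). CecA1 was higher in heart than in head by 3.02 (SE 0.64, adjusted p = 0.000113), its difference from periphery was 1.06 (SE 0.60, adjusted p = 0.104), and it was the 1 gene of the 10 that differed between head and periphery, lower in head with a difference of -1.96 (SE 0.49, adjusted p = 0.000609), in a comparison where 44.4% of all genes were called lower and 79.6% in either direction. Over the 26 periphery libraries of all weeks, CecA1 spanned 4.55-fold, from 71.5 to 326 FPKM. The span in the same libraries was 23.5-fold for CecA2, 56.7-fold for CecC and 93.3-fold to 267-fold for the attacins and diptericins, while CecB was listed at 0 in 10 of them. No periphery library was below 71.5 FPKM for CecA1, while the lowest value was 5.92 FPKM for CecA2 and 1.17 FPKM for CecC.

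**Figure D1:**
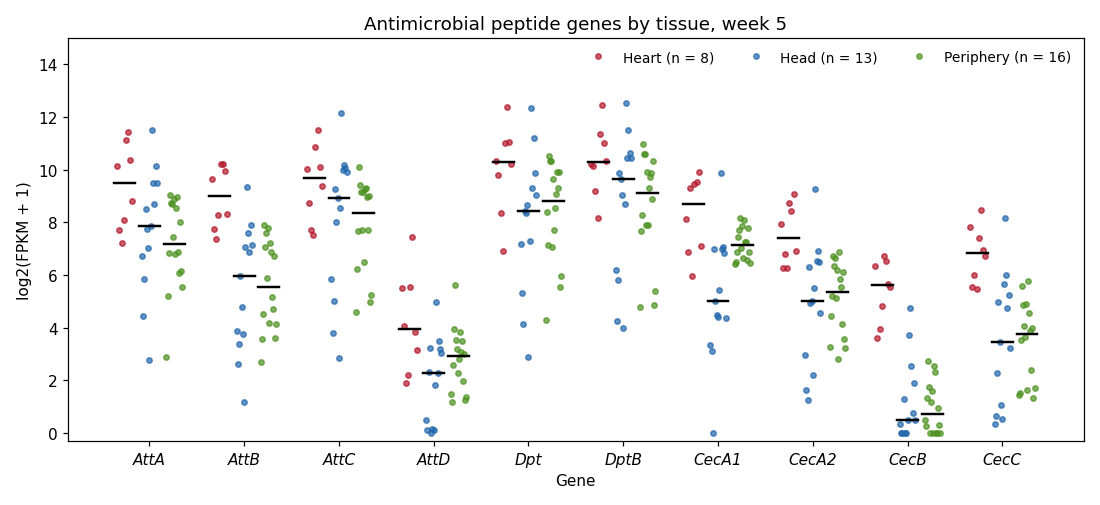
Level of each gene as log2(FPKM + 1) in the week 5 libraries of heart, head and periphery, 1 point per library with the median as a bar. The heart medians are the highest for all 10 genes, the points of CecB in heart lie above all those in periphery, and the CecA1 points of periphery are drawn together between 85.5 and 288 FPKM.

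The ratio of CecA1 to CecA2, which encode the same mature peptide, differed by tissue. The log2 ratio within a library (pseudocount 1) averaged 0.73 ± 0.85 in heart (SD, n = 8), 0.33 ± 0.86 in head (SD, n = 13) and 2.05 ± 0.88 in periphery (SD, n = 16). It was lower in heart than in periphery (2-sided exact permutation test, p = 0.00129, adjusted p = 0.00387 over 12 ratio tests chosen after their values were seen) and lower in head than in periphery (permutation test, p = 4e-05, adjusted p = 0.00024). Heart and head did not differ past the threshold (adjusted p = 0.408 by exact permutation). These ratio tests had no ZT block, and the tissues cover unlike ZTs. The log2 ratio of CecB to CecC averaged -1.39 in heart, -2.32 in head and -2.46 in periphery. Of its tests, only heart against periphery passed (exact permutation test, adjusted p = 0.0188), with CecB at 0 in 5 periphery libraries. Anp, the gene next to CecA1, was 4.19 to 33.3 FPKM in heart, at most 0.994 FPKM in head and 245 to 709 FPKM in periphery, where it spanned 2.89-fold. The 8 accessory gland markers, genes of a male reproductive gland, had a summed level of 7.74 to 189 FPKM in heart, at most 1.09 FPKM in head and 937 to 1889 FPKM in periphery at week 5. Of the 8 markers, 3 were at 0 throughout the TRF heads and 3 throughout the ALF heads. Whether cells of the male tract had a part in the CecA1 level was not tested.

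**Figure D2:**
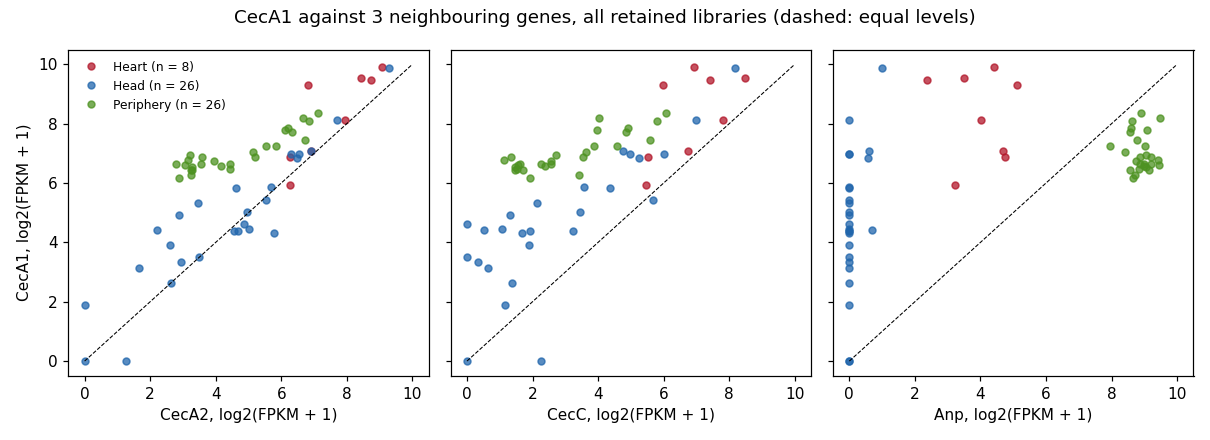
CecA1 level against CecA2, CecC and Anp, each as log2(FPKM + 1), in the 60 retained libraries of all weeks. Periphery points flatten at a CecA1 floor of 71.5 FPKM while CecA2 and CecC go on falling, and Anp separates the 3 tissues.

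AttA and AttB also stood in different proportion in the 3 tissues. AttB had a median of 557 FPKM in heart (165 to 1191), 60.6 in head (1.27 to 644) and 46.5 in periphery (5.50 to 235). AttB was higher in heart by 3.58 (SE 0.69, adjusted p = 3.14e-05) against periphery and by 3.49 (SE 0.73, adjusted p = 0.000107) against head. AttA had a median of 790 FPKM in heart, 228 in head and 145 in periphery, and rose in heart by 2.22 (SE 0.79, adjusted p = 0.0119) against periphery but not past the threshold against head (1.44, SE 0.84, adjusted p = 0.117). The log2 ratio of AttA to AttB averaged 0.40 ± 0.52 in heart (SD, n = 8), 2.21 ± 0.65 in head (SD, n = 13) and 1.57 ± 0.61 in periphery (SD, n = 16). It was lower in heart than in head (exact permutation test, p = 2.95e-05, adjusted p = 0.00024) and than in periphery (exact permutation test, p = 0.000193, adjusted p = 0.000772). The ratio was also higher in head than in periphery (permutation test, p = 0.0112, adjusted p = 0.0223). None of these tests had a ZT block. How shared reads were assigned to the 2 copies is not given in the sources used here.

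By median, AttC and the diptericins were high in all 3 tissues and AttD was low in all, with ranges that overlapped between tissues. AttD reached 174 FPKM in the TRF heart of ZT06, and AttC and Dpt fell to 6.19 and 6.41 FPKM in head. AttC had a median of 847 FPKM in heart, 480 in head and 352 in periphery, and its heart differences of 1.72 (SE 0.80, adjusted p = 0.0514) and 1.19 (SE 0.85, adjusted p = 0.205) missed the threshold against periphery and head. AttD, the attacin predicted to stay inside the cell, had a median of 14.4 FPKM in heart, 3.79 in head and 6.55 in periphery, and rose in heart by 1.47 (SE 0.60, adjusted p = 0.027) against periphery and by 2.04 (SE 0.64, adjusted p = 0.00535) against head. Dpt had a median of 1234 FPKM in heart, 347 in head and 458 in periphery, and rose by 1.93 (SE 0.81, adjusted p = 0.0306) and 2.06 (SE 0.86, adjusted p = 0.0308). DptB had a median of 1239 FPKM in heart, 799 in head and 551 in periphery, and rose by 2.01 (SE 0.78, adjusted p = 0.0207) against periphery, with 1.58 (SE 0.83, adjusted p = 0.0848) against head. The log2 ratio of Dpt to DptB averaged -0.35 in heart, -0.69 in head and -0.21 in periphery, with no tissue difference past the threshold (adjusted p 0.15 to 0.59, exact or permutation tests). Without the ZT00 libraries of all tissues 4 of the 10 genes kept their call against periphery, namely AttB, CecA2, CecB and CecC, and without the ZT06 libraries 5 did. With any 1 ZT left out, 9348 to 10342 of all genes were called in either direction, against 9935 of 12287 with every ZT. In heart against head, 5 to 8 of the 10 passed with any 1 ZT left out, where 8835 to 9939 of all genes did.

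Genes of the IMD pathway moved both ways between tissues. Of 15 pathway genes, 4 were higher and 6 lower in heart against periphery, and 7 higher and 7 lower against head. Rel was higher in heart by 2.55 (SE 0.21, adjusted p = 6.74e-12) against periphery and by 2.31 (SE 0.23, adjusted p = 3.35e-10) against head, and the receptor PGRP-LC by 0.61 and 0.55. Of 11 negative regulators tested, 2 were higher and 8 lower against periphery, and 4 higher and 5 lower against head. The 2 higher in both were pirk, which takes PGRP-LC off the cell surface, by 3.38 (SE 0.25, adjusted p = 6.98e-13) and 4.31 (SE 0.27, adjusted p = 2.29e-14), and the decoy receptor PGRP-LF, by 2.27 and 2.02. The gut regulators cad and nub, both transcription factors, were lower in heart than in periphery, with differences of -3.53 and -2.81. Of the other peptides, edin rose in heart by 2.57 and 2.62 and the defensin gene Def was lower, with differences of -3.08 and -2.54, while Drs, the Toll pathway peptide drosomycin, differed by -0.02 and -0.03.

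All 8 hemocyte markers were higher in heart than in periphery, with a median difference of 1.75, while 5 were higher and 1 lower in heart against head. Their summed level at week 5 was 205 to 324 FPKM in heart, 98.6 to 185 FPKM in head and 80.9 to 111 FPKM in periphery, and no marker was at 0 throughout any group. Of 7 fat body markers tested, 3 were higher (CG3523, Ilp6 and Rfabg) and 2 lower (Lsp2 and Yp3) in heart against periphery. Against head 1 was higher (CG3523) and 4 lower (Ilp6, Lsp1beta, Lsp2 and Yp3). The markers include the yolk protein genes Yp1 and Yp3, and all flies were male. The part of hemocytes or fat body in the heart levels was not tested.

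Feeding was compared within each tissue and week, with ZT as a block. No gene passed the threshold in any of the 7 comparisons of TRF with ALF (0% of 9879 genes in head, 9726 in heart and 12001 in periphery), and so 0 of the 10 did. The counts at an unadjusted p under 0.05 were 219 genes in head at week 5, 635 in heart and 460 in periphery at week 5, and limma-voom on the reads recovered from the FPKM steps also called 0 genes in each of the 3. The differences below are therefore given as values with their spread.

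**Figure D3:**
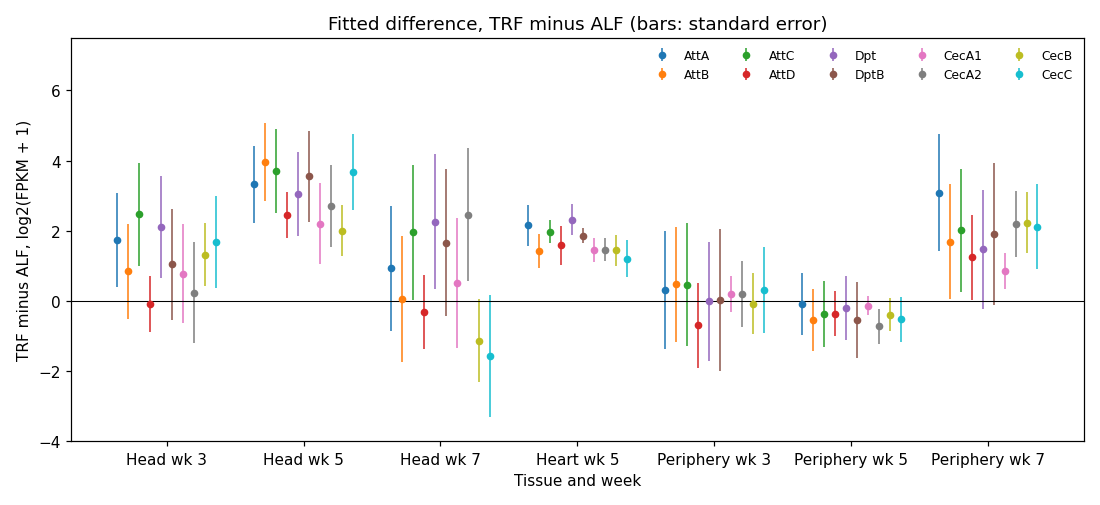
Fitted TRF minus ALF difference on the log2(FPKM + 1) scale for each of the 10 genes in the 7 comparisons, with the standard error as a bar. All 10 points are above 0 in head and heart at week 5 and in periphery at week 7, and all 10 are between -0.73 and -0.10 in periphery at week 5.

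In heads at week 5, the fitted TRF minus ALF difference was above 0 for all 10 genes, with none past the threshold. The difference ran from 1.996 to 3.95 with a median of 3.18, against a median of 0.04 over all genes, of which 56.6% were above 0. At an unadjusted p under 0.05 there were 9 of the 10, all at an adjusted p of 0.840. Since the genes vary together between libraries, these are not 10 separate observations. CecB met the minimum mean of 1 FPKM in head only through TRF libraries, so its sign in the TRF comparisons of head adds no support.

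AttB differed most. AttB ranged from 116 to 644 FPKM with a median of 165 in 6 TRF heads, and from 1.27 to 60.6 FPKM with a median of 12.6 in 7 ALF heads. The groups did not overlap, as in 0.0506% of all genes with TRF higher, and limma gave a difference of 3.95 (SE 1.12, adjusted p = 0.840). AttA ranged from 228 to 2874 FPKM (median 722) in TRF heads and from 5.80 to 361 FPKM (median 104) in ALF heads, with a difference of 3.32 (SE 1.10). AttC ranged from 367 to 4562 FPKM (median 1040) in TRF heads and from 6.19 to 609 FPKM (median 55.8) in ALF heads, with a difference of 3.69 (SE 1.20). Both overlap between the groups, since the highest ALF heads, at ZT12, exceed the lowest TRF heads, at ZT00. AttD was 2.53 to 30.3 FPKM in TRF heads and 0 to 8.48 FPKM in ALF heads, with a difference of 2.44 (SE 0.65).

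The diptericins reached the highest levels of the 10. DptB ranged from 408 to 5980 FPKM (median 1489) in TRF heads and from 14.7 to 937 FPKM (median 71.9) in ALF heads, with a difference of 3.55 (SE 1.30). Dpt ranged from 156 to 5181 FPKM (median 785) in TRF heads and from 6.41 to 400.2 FPKM (median 143) in ALF heads, with a difference of 3.05 (SE 1.19). In both genes the TRF head of ZT03 was the highest and the ALF head of ZT21 the lowest.

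Cecropins lay lower and followed the same order. CecC ranged from 8.43 to 287 FPKM (median 43.2) in TRF heads and from 0.271 to 30.5 FPKM (median 1.11) in ALF heads, with a difference of 3.67 (SE 1.08). CecA2 had a median of 90.1 FPKM in TRF heads and 6.74 FPKM in ALF heads, with a difference of 2.71 (SE 1.18). CecA1 had a median of 119 FPKM in TRF heads and 20.3 FPKM in ALF heads, and its difference of 2.201 (SE 1.15) was the 1 that did not reach an unadjusted p of 0.05 in limma. CecB was 0.391 to 25.7 FPKM in 6 TRF heads, the lowest value resting on 2 reads, and was at most 1.47 FPKM in 7 ALF heads, of which 4 listed it at 0. At ZT09 and ZT15 those ALF heads are shallow, 3 reads of CecB being worth 3.63 and 3.56 FPKM there, so that a level as low as in 3 of the TRF heads was not detectable.

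Paired by ZT, 7 genes (AttA, AttB, AttC, Dpt, DptB, CecA2 and CecC) were higher in the TRF head in 6 of 6 pairs, AttD and CecB in 5 and CecA1 in 4. The mean difference over the 10 genes was 2.43 at ZT00, 6.90 at ZT03, 0.63 at ZT12, 1.94 at ZT15, 2.42 at ZT18 and 4.03 at ZT21. The pair at ZT03 joins the highest head of all, at a mean of 9.49 log2 units in TRF, with an ALF head at 2.59. Without ZT03 the median difference of the 10 was 2.41, and leaving out any other ZT gave 2.71 to 3.63.

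**Figure D4:**
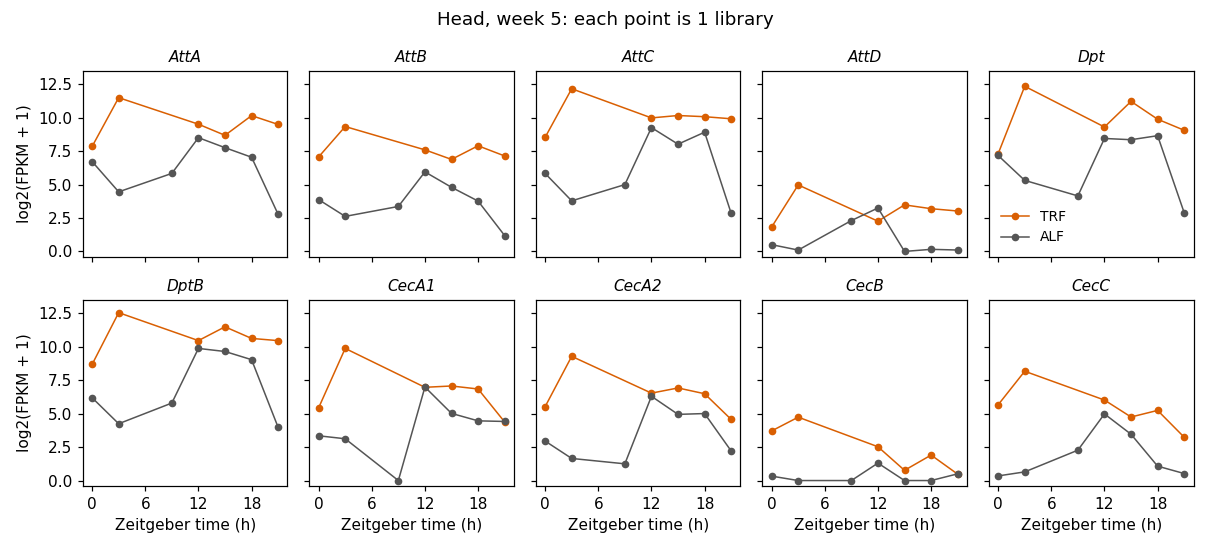
Level of each gene in heads at week 5 as log2(FPKM + 1) against ZT in hours, TRF in orange and ALF in grey, 1 library per point and no points for libraries left out. TRF lies above ALF at nearly every shared ZT, the gap is widest at ZT03 and narrowest at ZT12, where the mean differences are 6.90 and 0.63.

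In hearts, too, the fitted TRF minus ALF difference was above 0 for all 10 genes, with none past the threshold. It ran from 1.19 to 2.32 with a median of 1.52, against -0.05 over all genes, of which 41.8% were above 0. At an unadjusted p under 0.05 there were 9 of the 10, all at an adjusted p of 0.708.

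DptB was 2614, 5649, 2052 and 1280 FPKM in TRF hearts at ZT00, ZT06, ZT12 and ZT18, and 1198, 1126, 587 and 284 FPKM in ALF hearts at the same times. All 4 TRF hearts were above all 4 ALF hearts, as in 1.65% of all genes with TRF higher, and limma gave a difference of 1.86 (SE 0.22, adjusted p = 0.708). Dpt was 2077, 5292, 2127 and 1174 FPKM in TRF hearts and 1295, 893, 323 and 119 FPKM in ALF hearts in the same order. Only the ALF heart of ZT00 reached into the TRF range, and the difference was 2.32 (SE 0.44). AttC was 1850, 2877, 1108 and 662 FPKM in TRF hearts and 1032, 428, 206 and 181 FPKM in ALF hearts, with a difference of 1.97 (SE 0.33). AttA was 2229, 2785, 1319 and 446 FPKM in TRF hearts and 1134, 207, 148 and 267 FPKM in ALF hearts, with a difference of 2.15 (SE 0.58). In these attacins, too, the overlap came from the TRF heart of ZT18 and the ALF heart of ZT00.

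AttB was 1191, 1170, 988 and 319 FPKM in TRF hearts and 796, 213, 165 and 308 FPKM in ALF hearts, with a difference of 1.41 (SE 0.49). CecA1 was 701, 746, 965 and 134 FPKM in TRF hearts and 276, 116, 629 and 60.5 FPKM in ALF hearts, with a difference of 1.44 (SE 0.34). The remaining cecropins and AttD had differences of 1.19 (CecC), 1.43 (CecB), 1.46 (CecA2) and 1.58 (AttD). CecC was higher in the TRF heart in 3 of 4 pairs and the other 9 genes in 4 of 4. The mean difference over the genes was 0.63 at ZT00, 2.79 at ZT06, 2.01 at ZT12 and 1.28 at ZT18. The median difference stayed between 1.15 and 1.94 with any ZT left out.

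By median, genes of the pathway and its negative regulators differed less than the 10 peptide genes, while the regulator PGRP-SC2 reached the range of the 10. In heads at week 5, Rel differed by 0.77 (SE 0.28), PGRP-LC by 0.46 (SE 0.14), and 12 of 15 pathway genes were above 0 with a median of 0.11. The negative regulators pirk (1.04), PGRP-LB (1.16) and PGRP-SC2 (2.56, SE 0.56), the last 2 being amidases that degrade peptidoglycan, and 6 further regulators were all above 0, 9 of 9 tested, with a median of 0.31. In hearts, Rel differed by 0.65 (SE 0.19), PGRP-SC2 by 1.93 (SE 0.59) and pirk by 0.56 (SE 0.17), with a median of 0.03 over 15 pathway genes and 0.16 over 10 regulators. The other antimicrobial peptides were above 0 in 6 of 6 in heads (median 2.37), including the Toll-dependent Drs at 1.78 and Def at 2.10, and in 6 of 7 in hearts (median 1.33), led by Dro at 2.72. None of these genes passed the threshold.

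Markers of other cells were set beside these differences. In heads at week 5, 8 of 8 hemocyte markers were above 0 with a median of 0.17, and their sum was 168 to 185 FPKM in TRF heads and 98.6 to 181 FPKM in ALF heads. The sum of the 12 fat body markers was 494 to 1339 FPKM in TRF heads and 400.2 to 1483 FPKM in ALF heads. In hearts, 5 of 7 hemocyte markers were above 0 with a median of 0.07, and 0 of 7 fat body markers were, with a median of -0.38. The part of these cells in the feeding differences was not tested.

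In periphery at week 5 the 10 genes differed between TRF and ALF by -0.73 to -0.10, with a median of -0.39 (all genes -0.00), and standard errors of 0.28 to 1.08. DptB ranged from 28.2 to 1299 FPKM (median 551) in 8 TRF libraries and from 26.8 to 2029 FPKM (median 632) in 8 ALF libraries. AttA ranged from 46.2 to 501 FPKM (median 112) in TRF libraries and from 6.38 to 528 FPKM (median 295) in ALF libraries. CecA1 was 85.7 to 269 FPKM in TRF libraries and 85.5 to 288 FPKM in ALF libraries. The ranges of TRF and ALF overlapped in all 10 genes, AttD reaching 13.1 FPKM in TRF libraries and 47.6 FPKM in ALF libraries, and 0 of the 10 reached an unadjusted p of 0.05.

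In periphery the difference was positive at some ZTs and negative at others, with 1 library of each feeding type per ZT. The mean difference over the 10 genes was 1.45 at ZT00, 2.50 at ZT03, 1.31 at ZT06, -1.40 at ZT09, -2.06 at ZT12, -0.29 at ZT15, -1.77 at ZT18 and -2.91 at ZT21. In TRF libraries AttA was 109, 374 and 501 FPKM at ZT00, ZT03 and ZT06 and 115, 65.5, 254, 70.6 and 46.2 FPKM at ZT09 to ZT21. In ALF libraries AttA was 6.38, 35.6 and 112 FPKM at ZT00, ZT03 and ZT06 and 528, 421, 416, 175 and 465 FPKM at ZT09 to ZT21. For AttA the highest TRF value was at ZT06 and the highest ALF value at ZT09. CecC was 2.07, 54.1 and 22.7 FPKM in the first 3 TRF libraries, against 1.74, 1.85 and 10.6 FPKM in ALF libraries of the same times.

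A 24 h cosine fitted to each feeding type placed the peak of every gene earlier in TRF than in ALF in periphery, at 4.68 h (CecB) to 8.99 h (Dpt) in TRF and at 9.92 h (CecB) to 14.4 h (CecA1) in ALF. For AttA the peak was at 5.82 h in TRF and 13.3 h in ALF, with amplitudes of 1.03 and 2.24 log2 units. For AttD it was at 6.09 h in TRF and 12.6 h in ALF, and AttD had the smallest p for a difference of rhythm between the feeding types (adjusted p = 0.667, limma F test over 11992 genes). No gene passed this test (0% in periphery and 0% in head, with 590 and 247 genes at an unadjusted p under 0.05), and 4 of the 10 reached an unadjusted p of 0.05 in periphery and 3 in head. Without ZT15, AttD passed in periphery (adjusted p = 0.0311). In head the fitted peaks were at 5.41 h (CecB) to 8.52 h (Dpt) in TRF and 9.44 h (AttD) to 17.0 h (CecA1) in ALF. The TRF heads of ZT06 and ZT09 were among the libraries left out, so the fitted TRF peaks in head fall in a stretch with no library, and the highest TRF head measured was that of ZT03. Each curve rests on 8 libraries or fewer, and the test was chosen after the values were seen.

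**Figure D5:**
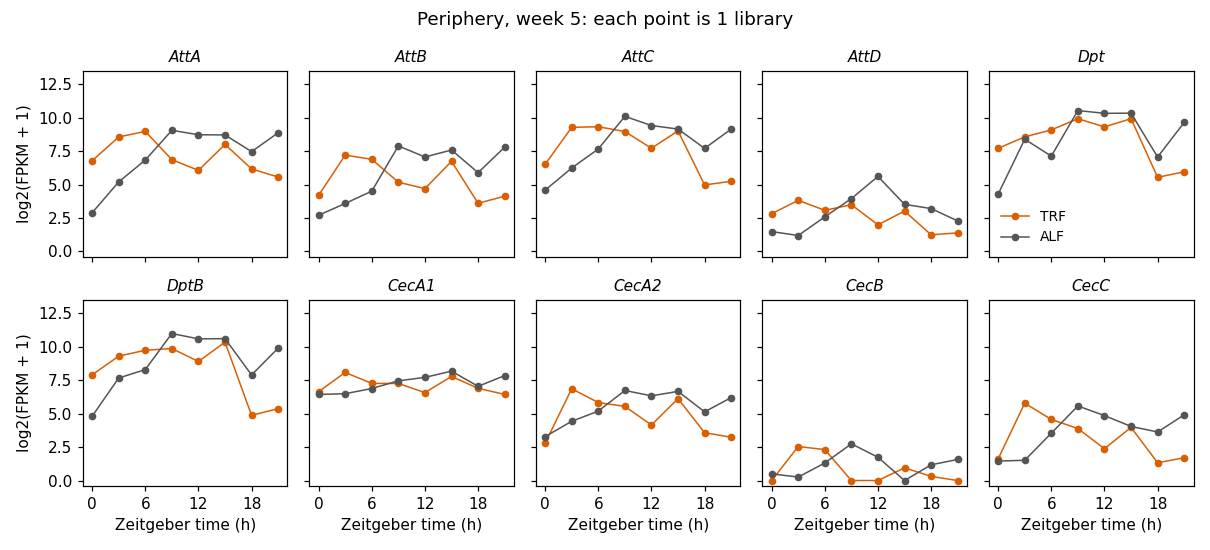
Level of each gene in periphery at week 5 as log2(FPKM + 1) against ZT in hours, TRF in orange and ALF in grey, 1 library per point. The lines cross between ZT06 and ZT09 in most genes, TRF being higher by 1.31 to 2.50 on average before and lower by 0.29 to 2.91 after, and CecA1 moves least.

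With both feeding types sharing 1 rhythm, 29 of 11992 genes passed in periphery (0.242%) and 0 in head and heart, and 0 of the 10 passed in any. The periphery count was 0 without ZT09 or ZT12 and 169 without ZT00. The closest were Dpt and DptB in periphery, with amplitudes of 1.78 and 1.87 log2 units, peaks at 10.7 and 10.3 h and adjusted p values of 0.106 and 0.108 (limma F test). In heart, AttD had an amplitude of 2.04 with a peak at 3.28 h, and DptB one of 1.09 with a peak at 4.77 h, both at an adjusted p of 0.316. At an unadjusted p under 0.05 there were 668 genes in head and 1009 in heart, and limma-voom called 0 genes in head and 3 in heart, with none of the 10 among them.

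The tissues were also compared directly in their TRF difference at week 5. The TRF difference in head minus that in periphery was above 0 for all 10 genes, with a median of 3.76 (all genes 0.04), led by AttB at 4.64 (SE 1.10, adjusted p = 0.756 in limma) and CecC at 4.32 (SE 1.07, adjusted p = 0.756). All 10 were under an unadjusted p of 0.05 and none passed the adjusted threshold, as for all 12287 genes (0%, with 397 at an unadjusted p under 0.05). For heart minus periphery the median was 2.08 and for heart minus head -1.45, again with 0 genes past the threshold (0%, with 767 and 1025 at an unadjusted p under 0.05, and 1 gene by limma-voom for heart minus head).

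At weeks 3 and 7 the feeding differences rested on fewer libraries. In heads at week 3 (4 TRF and 4 ALF), 9 of the 10 genes were above 0 with a median of 1.18. DptB was 2900, 221, 10.7 and 1329 FPKM in TRF heads at ZT00, ZT06, ZT12 and ZT18, and 91.8, 17.9, 1406 and 229 FPKM in ALF heads. The TRF head of ZT12, with 0.210 M reads, had 6 of the 10 genes listed at 0, and without that library the median was 2.99; without ZT00 it was 0.22. In heads at week 7 (2 TRF and 3 ALF) 7 of 10 were above 0 with a median of 0.71, which was -0.47 without ZT00 and 1.99 without ZT06. The summed level of the fat body markers was 1957 to 3488 FPKM in these 2 TRF heads and 473 to 892 FPKM in the 3 ALF heads. Of 9 such markers tested 8 were above 0, with none past the threshold. The large differences were those of Lsp2 (6.19), Lsp1beta (3.30) and Lsp1alpha (2.55), and the rest ran from -0.35 (Yp3) to 0.50 (CG3523). Of the 12 markers, 2 were at 0 throughout the TRF heads and 1 throughout the ALF heads. Their part in the week 7 differences was not tested.

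In periphery at week 7 (2 TRF and 3 ALF) all 10 genes were above 0 with a median of 1.96. CecA2 was 139 and 10.8 FPKM in TRF libraries at ZT12 and ZT18, and 8.22, 8.43 and 7.93 FPKM in ALF libraries at ZT06, ZT12 and ZT18. CecA2 and CecB did not overlap between the groups, as in 7.9% of all genes with TRF higher. The difference rests on the TRF library of ZT12, the highest periphery library in all 10 genes but AttD, and the median was 0.19 without ZT12 and 3.55 without ZT18. In periphery at week 3 the median was 0.19, which was 2.40 without ZT12, -2.09 without ZT18 and -0.22 without ZT06. At an unadjusted p under 0.05 there were 788 genes in head at week 3, 532 in head at week 7, 341 in periphery at week 3 and 1147 in periphery at week 7, and limma-voom called 0 in each.

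Between ages, none of the 10 genes passed the threshold. In periphery, 653 of 12001 genes passed between weeks 5 and 3 (5.44%) and 1393 between weeks 7 and 3 (11.6%), and 0 of the 10 passed in either. Without ZT12 the counts of all genes were 11 and 151, and without ZT18 they were 77 and 783. All 10 were above 0 in both, with medians of 1.32 and 0.85 (all genes 0.05 and 0.06). Of the genes called, 91.9% and 78.0% were higher at the later week as deposited, and 78.1% and 48.5% with FPKM rescaled. AttA ranged from 6.38 to 528 FPKM with a median of 145 in 16 libraries of week 5 and from 3.79 to 96.4 FPKM with a median of 14.7 in 5 libraries of week 3, and its difference of 2.84 (SE 1.11, adjusted p = 0.160) was the largest of the 10. CecA1 had medians of 95.9, 141 and 108 FPKM at weeks 3, 5 and 7. The pathway genes that passed were the IKK gamma subunit key, which rose by 0.43 (adjusted p = 0.00423), the negative regulator PGRP-LF, which rose by 0.90 (adjusted p = 0.0217), and Def, which rose by 2.63 (adjusted p = 0.00147), all at week 7 against week 3. CYLD, a deubiquitinase of the pathway, rose by 0.40 (adjusted p = 0.0207) at week 5 against week 3.

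In head, 7 of 9879 genes passed between weeks 5 and 3 (0.0709%) and 0 between weeks 7 and 3 (0%, with 360 at an unadjusted p under 0.05), and 0 of the 10 passed in either. The 7 became 21 without ZT15, 1 without ZT12 and 0 without ZT18. All 10 were above 0 at week 5 against week 3 with a median of 1.36, and 5 of 10 at week 7 against week 3 with a median of -0.07. AttC had medians of 121, 480 and 162 FPKM at weeks 3, 5 and 7, with ranges that overlap at all ages. Retained heads held 0.210 to 2.30 M reads at week 3, 2.06 to 18.6 M at week 5 and 1.10 to 3.92 M at week 7. Depth thus moved with week, and its part in these differences was not tested. Week and any batch cannot be told apart.

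The 10 genes varied together from library to library. With the mean of each tissue, week and feeding group removed, the correlation of log2 levels between 2 of the genes had a median of 0.72 over 8 heart libraries (0.16 for CecA1 and CecB to 0.98 for AttA and AttB), 0.71 over 26 head libraries (0.24 for Dpt and CecB to 0.96 for AttC and DptB) and 0.78 over 26 periphery libraries (0.40 to 0.98). These are descriptions over libraries that share a normalization. The genes most like the mean of the 10, out of all others tested, were CG43236 (r = 0.92), edin (0.86), Mtk (0.86), PGRP-SD (0.84) and PGRP-SB1 (0.81) in head. In periphery they were PGRP-SB1 (0.96), edin (0.93), PGRP-SD (0.92), Mtk (0.92) and CG43109 (0.91), the last of which overlaps DptB. Mtk encodes the antifungal peptide metchnikowin, and the PGRP genes encode peptidoglycan recognition proteins. In heart, over 8 libraries, the list was Pect, Idgf3, Ctf4, PGRP-SA and CR31514, at 0.96 to 0.98, and Ctf4 and CR31514 are near the detection limit there, at 0.758 to 1.46 FPKM and 0.680 to 2.69 FPKM. Over so few libraries the highest of 9716 correlations can be this large by chance, which was not tested.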

How the data were processed

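Unstranded polyA+ RNA was sequenced, and the labels' protocols name RNeasy and TruSeq kits. The authors deposited FPKM for 29260 RefSeq transcripts. The submitters' processing notes name CASAVA 1.8.2, STAR 2.2.0c, HOMER and dm3, and the counting of reads shared by copies is not given in the sources used here. From the FPKM steps whole reads were recovered (100% of values whole within 0.03 reads), at 0.210 to 23.7 M per library.

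limma 3.58.1 (R 4.3.3) was fitted to log2(FPKM + 1), which understates changes of low genes, over the genes averaging 1 FPKM or more, with ZT as a block and an adjusted p under 0.05 as threshold. All weeks of a tissue shared 1 fit, and tissues were compared at week 5. All 10 genes passed the filter in every fit. In head, CecB did so through its TRF libraries. In ALF heads it was at most 1.51 FPKM at week 3, 1.47 FPKM at week 5 and 1.47 FPKM at week 7, and averaged below the filter. Ratios were tested by permutation of libraries between tissues, with no ZT block (scipy 1.17.1). The fits were tested on simulated data, whose outcome is not given here. The 10 genes, the marker and pathway lists and the rules were chosen with earlier results of these data known. Libraries of 1 group may share cultures, which the labels do not give.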

Additional observations from a re-analysis of the deposited data

Results flagged for a closer look

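Of 80 groups of 4 to 8 libraries, 4 held 1 library far from the others, which is no more than the about 1 group in 20 that chance marks. In TRF hearts the ZT18 library was the lowest for AttB, at 319 FPKM with the next at 988 FPKM, and for CecA1, at 134 FPKM with the next at 701 FPKM. In ALF heads of week 5 the ZT12 library was the highest for CecB, at 1.47 FPKM with the next at 0.415 FPKM. In TRF heads of week 3 the ZT12 library listed AttD at 0 with the next at 1.42 FPKM, and that library is the shallowest of all, at 0.210 M reads. The 1.42 FPKM rests on 1 read, and 3 reads of AttD are worth 19.3 FPKM in the ZT12 library, so this gap is not a measured one.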

How the results depend on the processing

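Depth limits the head libraries of week 3 most, at 0.210 to 2.30 M reads, and then those of week 7, at 1.10 to 3.92 M. Over the other settings and with each ZT left out, 0 values of the 10 genes turned round in sign for TRF against ALF in head and heart at week 5, for heart against periphery and head, or for the TRF difference in head minus periphery. In periphery at week 5, 10 of 189 values for TRF against ALF did, and at week 3 35 of 188. The smallest adjusted p of any of the 10 was 0.120 in head and 0.238 in heart at week 5. The cause of the shifts below was not tested.

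Counts of genes past the threshold moved as follows. A pseudocount of 0.1 gave 3 for TRF in head at week 3, 11 for head at week 5 against 3, and 33 and 40 for the TRF difference in heart minus periphery and heart minus head. A pseudocount of 5 gave 2 for TRF in head at week 7 and 1 for head at week 7 against 3. With no filter on low values they were 5 for TRF in head at week 7, 15 each for head at weeks 5 and 7 against 3, 2 and 1 for TRF in periphery at weeks 3 and 7, and 6 and 2 for heart minus periphery and heart minus head. A minimum mean of 5 FPKM gave 3 for head at week 5 against 3. All 72 libraries as labelled gave 1 for TRF in head at week 3, 0 and 1 for head at weeks 5 and 7 against 3, and 1 and 5 for periphery. FPKM summed over transcripts gave 1 and 4 for heart minus periphery and heart minus head. limma-voom gave 35 for head at week 5 against 3, 1 for heart minus head and 3 for the heart rhythm. Without the head TRF library of week 3 at ZT12 the count for head at week 5 against 3 was 4.

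The same ZT served as the pairing block. With no replicate block the counts were 4 for TRF in head at week 3, 16 for head at week 5 against 3, 2 for TRF in periphery at week 7 and 1240 for periphery at week 5 against 3. With a replicate block of ZT within each week, chosen after seeing the data, 20 genes passed for TRF in periphery at week 7, and the median of the 10 for TRF in periphery at week 3 was -0.22. With each week fitted alone 76 genes passed for TRF in periphery at week 7, among them 1 of the 10, AttD (adjusted p = 0.0241), and the median in periphery at week 3 was -0.15, against -0.045 by limma-voom.

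With 1 ZT left out in turn, the counts for TRF against ALF were 0 to 7 in head at week 3, 0 to 1 at weeks 5 and 7 and 0 to 2 in periphery at week 7. They were 0 to 21 for head at week 5 against 3, 0 to 1 at week 7 against 3, 11 to 704 for periphery at week 5 against 3 and 151 to 1425 at week 7 against 3. They were 0 to 1 for head minus periphery, 0 to 4 for heart minus head, 0 to 5 for the head rhythm, 0 to 169 for the periphery rhythm and 0 to 2 for its difference between feeding types, with 0 to 1 of the 10. Of the 10, 4 to 10 were higher in heart than in periphery and 5 to 8 were higher than in head. The counts of all genes called in either direction were 9348 to 10342 and 8835 to 9939. The median of the 10 was -0.47 to 1.99 for TRF in head at week 7, -2.09 to 2.40 in periphery at week 3, -0.81 to 0.56 for head at week 7 against 3 and -0.093 to 0.47 for head against periphery.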

Other observations

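In the 6 libraries labelled head that carry body markers, CecA1 was 92.2 to 200.1 FPKM and Anp 455 to 796 FPKM, within or near the range of the periphery libraries.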
